A study of Arabidopsis thaliana with 12 samples.

Results

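The nuclear photosystem and antenna genes of Arabidopsis were followed in rosettes of 4 genotypes that differ in the ascorbate pathway. The members were the loci of the LHCB, LHCA, PSA, PSB, PETC, PETE, FNR, ATPC1 and ATPD names, taken by locus identifier. No filter on level was used, but the list was made with earlier results of these data known. The members came to 49 of the 33618 genes in the expression table. They fall into 21 antenna genes, 21 genes for photosystem subunits and 7 genes for electron carriers and the chloroplast ATP synthase. The 3 altered genotypes were vtc2 (allele vtc2-4), with a lesion in the GDP-L-galactose phosphorylase of ascorbate synthesis, vtc4 (allele vtc4-4), with a lesion in a phosphatase of the same pathway, and OE (labelled vtc2/OE-VTC2 L15), a single line that carries a VTC2 transgene in the vtc2 background. Wild type (WT) was the reference. The promoter that drives the transgene is not given in the sources used here, and each mutant is represented by 1 allele. Every group had 3 mRNA-seq libraries, each made from an independent pool of 8 rosettes. Plants were 4 weeks old, had grown under 8 h of light and 16 h of darkness at 22 ± 1 °C and 300 ± 70 µmol photons per square metre and second, and were collected 30 min after the lights came on, with no treatment.

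The light reactions of photosynthesis run in the thylakoid membrane. Antenna proteins of the LHCB family bind chlorophyll and pass excitation energy mainly to photosystem II, and those of the LHCA family pass it to photosystem I. Photosystem II oxidises water at a manganese cluster covered by the PSBO, PSBP and PSBQ proteins. Electrons then pass through the cytochrome b6f complex, which holds the Rieske protein PETC, to plastocyanin (PETE), photosystem I and ferredoxin, and FNR hands them to NADP+. The reaction centre proteins themselves are encoded in the chloroplast genome, so the nuclear genes here encode the outer subunits and the antenna.

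These genes were among the most abundant messages of the rosettes. Members took 9 of the 10 highest places by mean FPKM (fragments per kilobase of transcript and per fixed number of mapped fragments, a level corrected for transcript length) and 42 of the highest 200. Together they held between 18.1% and 20.9% of the summed FPKM of a library. The antenna genes spanned mean levels over all 12 libraries from 38.3 FPKM for LHCB7 to 9724 FPKM for LHCB1.5, the photosystem genes from 817 FPKM for PSAH1 to 7073 FPKM for PSBR, and the carriers from 329.9 FPKM for PETE1 to 3097 FPKM for PETE2. The label of the set matches these levels, since all genes with values other than LHCB7 and LHCB4.3 averaged over 100 FPKM.

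LHCB1.3 (AT1G29930), a copy of the most abundant antenna protein of photosystem II, is listed at 0 in all 12 libraries. RBCS1A and RCA, which encode a Rubisco subunit and Rubisco activase and are used by every green leaf cell, are listed at 0 as well, so this 0 was not read as an absent message, and LHCB1.3 entered no test. Coding sequences of LHCB1.1 and LHCB1.3 are 96.1% identical, and those of LHCB1.1 and LHCB1.2 are 95.6% identical. The 3 copies lie side by side on chromosome 1, and 10.4% of the 75-base stretches of the LHCB1.1 transcript also occur in another transcript. The following 60 bases are coding bases 25 to 84 of each copy in RefSeq TAIR10.1. This stretch was picked for its many differing positions, so the copies differ more here than over the whole coding sequence. Capitals mark the 8 positions in this stretch at which the copies differ, of 47 in the whole coding sequence of 804 bases.
LHCB1.1 (chr1:10475809-10475868, minus strand): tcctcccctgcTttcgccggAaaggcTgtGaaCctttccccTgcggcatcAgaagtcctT
LHCB1.2 (chr1:10473163-10473222, minus strand): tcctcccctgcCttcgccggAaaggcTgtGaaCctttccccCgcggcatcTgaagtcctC
LHCB1.3 (chr1:10478095-10478154, plus strand): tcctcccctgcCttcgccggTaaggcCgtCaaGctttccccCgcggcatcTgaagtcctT
Levels of single LHCB1 copies are uncertain because the copies share stretches of sequence. Those of LHCB2.1 and LHCB2.2, which share 15.3% and 19.1% of their 75-base stretches with another transcript, are uncertain in the same way.

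Upstream windows are shown for genes on which the results below turn: LHCB1.4, the antenna gene with the largest positive difference in vtc2, PSAK and FNR2, which were lower in vtc2, and the plastocyanin pair PETE1 and PETE2, whose shares of plastocyanin differed between vtc2 and WT. Each is the 200 bases before the annotated gene start in RefSeq TAIR10.1. Capitals mark the letters of the motifs searched, each on both strands; none of the motifs contains another. The CCAAT motif is spelled by its name. The I-box is GATAAG. The G-box is CACGTG. The sites named for the clock factor CCA1 are AAAAATCT and AACAATCT.
LHCB1.4 (chr2:14524407-14524606, plus strand): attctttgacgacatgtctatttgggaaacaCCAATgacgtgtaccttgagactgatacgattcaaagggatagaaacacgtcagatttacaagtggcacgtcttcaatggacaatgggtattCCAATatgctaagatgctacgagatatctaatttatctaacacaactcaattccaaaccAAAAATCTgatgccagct
PSAK (chr1:10721983-10722182, plus strand): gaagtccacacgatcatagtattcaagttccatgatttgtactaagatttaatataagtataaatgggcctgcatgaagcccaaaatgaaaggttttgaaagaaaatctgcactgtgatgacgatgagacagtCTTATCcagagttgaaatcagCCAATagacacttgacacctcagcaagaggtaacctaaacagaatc
FNR2 (chr1:6942425-6942624, plus strand): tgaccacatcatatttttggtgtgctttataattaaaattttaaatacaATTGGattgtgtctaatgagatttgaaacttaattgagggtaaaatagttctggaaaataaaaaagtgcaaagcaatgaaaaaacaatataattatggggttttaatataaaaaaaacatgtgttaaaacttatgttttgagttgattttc
PETE2 (chr1:7043393-7043592, minus strand): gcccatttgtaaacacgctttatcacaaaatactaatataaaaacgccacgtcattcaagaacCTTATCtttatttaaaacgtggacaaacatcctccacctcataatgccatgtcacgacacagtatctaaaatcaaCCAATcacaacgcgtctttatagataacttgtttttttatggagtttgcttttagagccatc
PETE1 (chr1:28554931-28555130, minus strand): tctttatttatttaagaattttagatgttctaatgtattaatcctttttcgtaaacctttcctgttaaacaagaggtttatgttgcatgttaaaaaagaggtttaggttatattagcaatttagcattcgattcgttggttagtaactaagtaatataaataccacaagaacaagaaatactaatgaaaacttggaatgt
CCAAT stood in 17 of 21 antenna windows (81.0%) and 8 of 21 photosystem windows (38.1%), against 39.6% of the windows of 27443 protein-coding genes. All 9 windows of LHCB1 to LHCB3 held it. The G-box stood in 20.4% of the 49 member windows and 5.6% of all windows, and the I-box in 22.4% of member windows and 10.0% of all windows. AAAAATCT stood in 10.2% of member windows against 5.2% of all windows, and AACAATCT in 2.0% against 1.4%. TATAAA, searched as well and not capitalised, stood in 40.8% of member windows and 41.0% of all windows. These are matches of letters and say nothing of which factors bind.

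VTC2 and VTC4 were read in every library as a check of the labels. VTC2 lay between 14.8 and 20.3 FPKM in vtc2, between 719 and 850 FPKM in vtc4, between 366 and 411 FPKM in the libraries labelled OE, and between 745 and 900 FPKM in WT, so the line labelled as an overexpressor stood above its vtc2 background and below WT, and OE is used here as its label. VTC4 lay between 0.276 and 0.426 FPKM in vtc4 and between 21.5 and 30.3 FPKM elsewhere. The summed FPKM of a library ranged from 684606 to 757484, so fold changes were computed on the deposited values and again after rescaling every library to a common FPKM sum. Read totals are not in the table. From the steps between low values, 1 fragment was worth 0.91 to 1.01 times as much as in WT replicate 1, and depth therefore differed little. Tests were run with limma on log2(FPKM + 1) over 17290 genes, adjusted by Benjamini and Hochberg over all of them, and a gene was called at an adjusted p below 0.05. Fold changes below are on this scale.

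In vtc2, 7 members fell against WT and none rose past the threshold: the antenna genes LHCB7 and LHCA5, the photosystem subunits PSAK and PSBR, and the carriers PETC, PETE2 and FNR2. Of 48 members tested, 45 had negative fold changes, with a median of -0.17 and a range from -0.42 to 0.19. Over all genes tested, 3.02% were called in this comparison and 2.23% were called lower. Among the 1024 other genes with a mean of at least 100 FPKM, 796 were negative, 99 were called lower, 3 were called higher, and the median was -0.11. Fewer cells with chloroplasts and less message per cell cannot be told apart in whole rosettes.

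**Figure D1:**
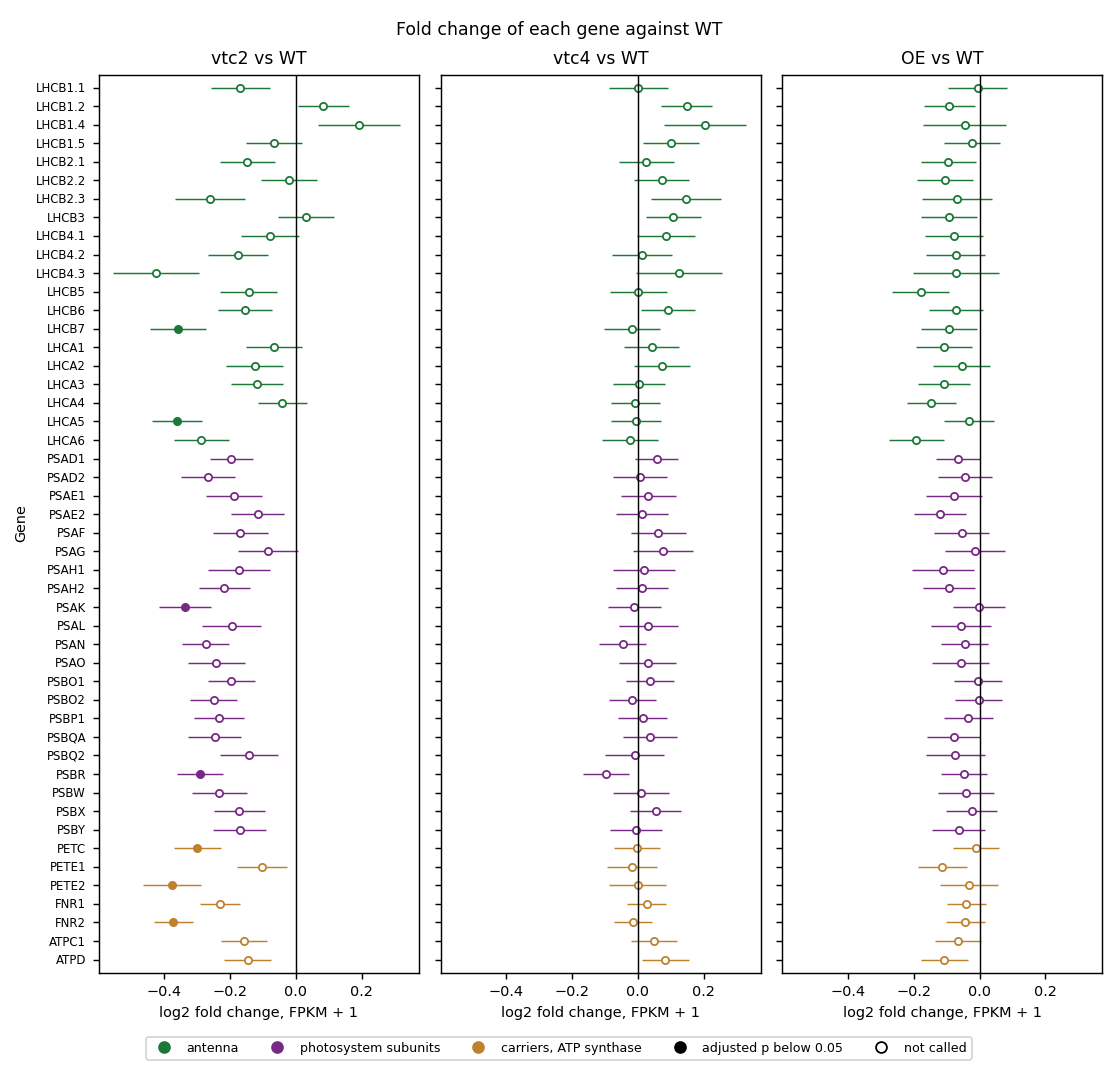
Log2 fold change of each of 48 genes (rows, colour by class) in vtc2, vtc4 and OE against WT, on the log2(FPKM + 1) scale, with bars for the standard error and filled points for an adjusted p below 0.05. Filled points appear for 7 genes in vtc2 and for none in vtc4 or OE, and 45 of the 48 vtc2 points lie left of 0.

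FNR2 (AT1G20020) encodes a leaf ferredoxin-NADP+ oxidoreductase and lies on chr1:6942625-6945091. It had 331, 301 and 307 FPKM in the vtc2 libraries, against 423, 375 and 419.8 FPKM in the WT libraries. All vtc2 libraries stood below all WT libraries. The fold change was -0.37 ± 0.059 (SE, n = 3 per group; limma adjusted p = 0.0109), and the call held in 11 of 12 fits that left out 1 library, with the highest adjusted p, 0.0526, without vtc2 replicate 3. FNR1 (AT5G66190), its partner, had a fold change of -0.23 ± 0.060 (SE) and missed the threshold (limma adjusted p = 0.0603).

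PETE2, the main plastocyanin gene of the leaf (AT1G20340, chr1:7042046-7043392), had 2603, 2587 and 2436 FPKM in vtc2 and 3283, 2949 and 3702 FPKM in WT. The groups did not overlap, and the WT libraries were the more scattered. Its fold change was -0.38 ± 0.087 (SE; limma adjusted p = 0.0412). PETE1 (AT1G76100), the minor plastocyanin gene, had 329, 327 and 302 FPKM in vtc2 and 359, 324 and 346 FPKM in WT. These groups overlapped, and the fold change was -0.10 ± 0.075 (SE; limma adjusted p = 0.488).

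PETC, the Rieske iron-sulfur protein (AT4G03280, chr4:1440146-1441863), had 1596, 1612 and 1552 FPKM in vtc2 and 2018, 1768 and 2082 FPKM in WT. Every vtc2 library was below every WT library, by -0.30 ± 0.070 on the log2 scale (SE; limma adjusted p = 0.0440). The ATP synthase genes ATPC1 and ATPD, for the gamma and delta subunits, had fold changes of -0.16 and -0.15 and were not called.

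Both called photosystem genes encode small outer subunits. PSAK (AT1G30380, chr1:10722183-10723247), a membrane subunit of photosystem I on the side of its antenna, had 2665, 2398 and 2368 FPKM in vtc2 and 3129, 2812 and 3458 FPKM in WT. PSBR (AT1G79040, chr1:29735952-29737009), a photosystem II subunit that helps to hold the water-oxidising proteins in place, had 6134, 6393 and 6113 FPKM in vtc2 and 7698, 7180.1 and 7926 FPKM in WT. Neither gene's groups overlapped. The fold changes were -0.34 ± 0.080 for PSAK (SE; limma adjusted p = 0.0449) and -0.29 ± 0.070 for PSBR (SE; limma adjusted p = 0.0483).

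The called antenna genes were rare members of their families. LHCA5 (AT1G45474, chr1:17179250-17180806), a minor photosystem I antenna protein known in Arabidopsis to link photosystem I to the chloroplast NDH complex, had 207, 216 and 205 FPKM in vtc2 and 276, 236 and 297 FPKM in WT. LHCB7 (AT1G76570, chr1:28728998-28730851), a little expressed relative of the antenna proteins, had 28.7, 33.9 and 33.9 FPKM in vtc2 and 37.2, 41.1 and 46.3 FPKM in WT. Both sets of groups were apart. The fold changes were -0.36 ± 0.076 for LHCA5 (SE; limma adjusted p = 0.0298) and -0.36 ± 0.084 for LHCB7 (SE; limma adjusted p = 0.0440).

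**Figure D2:**
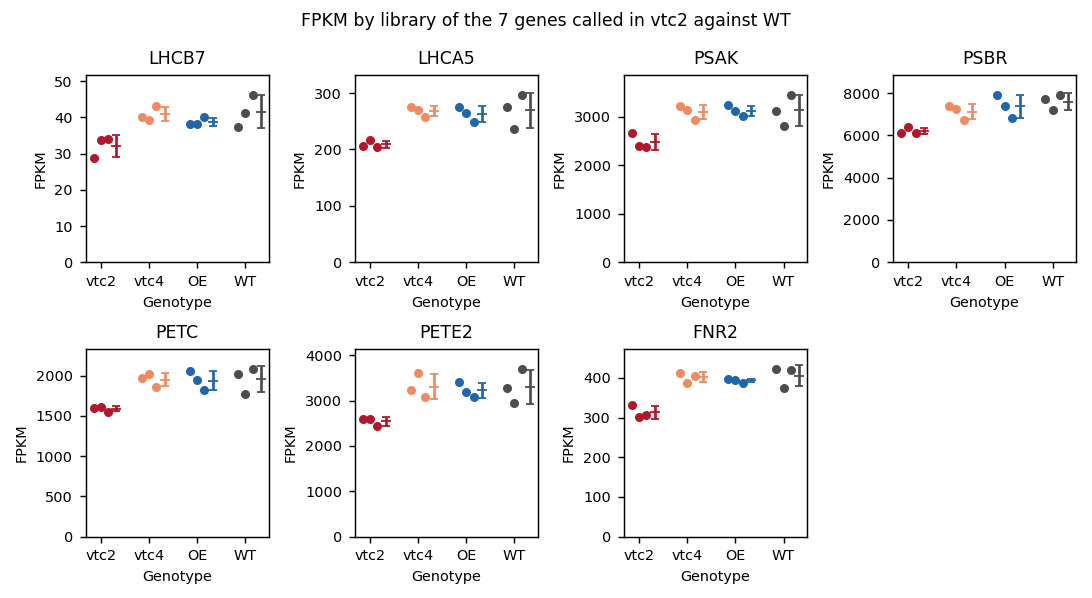
FPKM by library (points, vertical axes from 0) of the 7 genes called in vtc2 against WT, for vtc2, vtc4, OE and WT, with the mean and SD of each group beside the points. In all 7 panels the 3 vtc2 points lie below the 3 WT points; for FNR2 vtc2 lies between 301 and 331 FPKM and WT between 375 and 423 FPKM.

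The calls depended on single libraries, FNR2 and LHCA5 least. PSBR and PSAK were each kept in 2 of the 12 fits that left out 1 library, PETC in 2, LHCB7 in 1, PETE2 in 5 and LHCA5 in 8. Without vtc2 replicate 3 no member was called, without vtc2 replicate 2 or WT replicate 3 there was 1, without WT replicate 1 there were 2, and without WT replicate 2 there were 12.

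Among the abundant antenna genes of photosystem II the fold changes ran in both directions. LHCB1.5 (AT2G34420) had 9460.3, 9102 and 9185 FPKM in vtc2 and 10089, 8734 and 10289 FPKM in WT, a fold change of -0.07 with a 95% interval from -0.25 to 0.12. LHCB1.1 (AT1G29920), the second most abundant member, had 7678, 6995 and 6608 FPKM in vtc2 and 8643, 7209.7 and 8086 FPKM in WT (-0.17 ± 0.089, SE; limma adjusted p = 0.320). The groups of both genes overlapped. LHCB1.4 (AT2G34430) had 3363, 2990.2 and 2767 FPKM in vtc2 and 2867, 2304 and 2828 FPKM in WT, and its value of 0.19 ± 0.125 (SE; limma adjusted p = 0.430) was the highest of all members, with overlapping groups. LHCB1.2 at 0.08 and LHCB3, a further subunit of the LHCII trimer, at 0.03 were the other members above 0. All 3 LHCB2 genes were negative, LHCB2.1 at -0.15, LHCB2.2 at -0.02 and LHCB2.3 at -0.26 ± 0.106 (SE; limma adjusted p = 0.202). The 8 tested genes of LHCB1 to LHCB3 had a median of -0.04 with none called, 1 with an unadjusted p below 0.05 (19.7% of all genes had one) and none with groups apart.

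The remaining members are summarised by class. All 21 photosystem genes were negative, with a median of -0.20 (12 PSA genes -0.19, 9 PSB genes -0.23), and 13 of them had every vtc2 library below every WT library. PSAH1 (AT3G16140), the least abundant of them and a subunit at the docking site of mobile antenna, had 754, 790.3 and 727 FPKM in vtc2 and 879, 776 and 907 FPKM in WT, with overlapping groups (-0.17 ± 0.094, SE; limma adjusted p = 0.340). The 20 antenna genes had a median of -0.13, with 17 negative and 4 lower in every vtc2 library, and this median was -0.21 without WT replicate 2, -0.071 without WT replicate 3 and -0.059 with library weights. The 6 LHCA genes stood at -0.12 and the 6 minor LHCB genes at -0.17. The 7 carrier and ATP synthase genes had a median of -0.23, with 4 lower in every vtc2 library. Groups were apart in the lower direction for 43.8% of the members, against 35.1% of the abundant other genes and 12.6% of all genes tested. LHCB4.3 (AT2G40100), a minor antenna gene, had the most negative fold change, -0.42 ± 0.130 (SE; limma adjusted p = 0.102), but its groups overlapped, at 36.6, 42.2 and 35.4 FPKM in vtc2 against 57.2, 41.9 and 56.1 FPKM in WT.

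**Figure D3:**
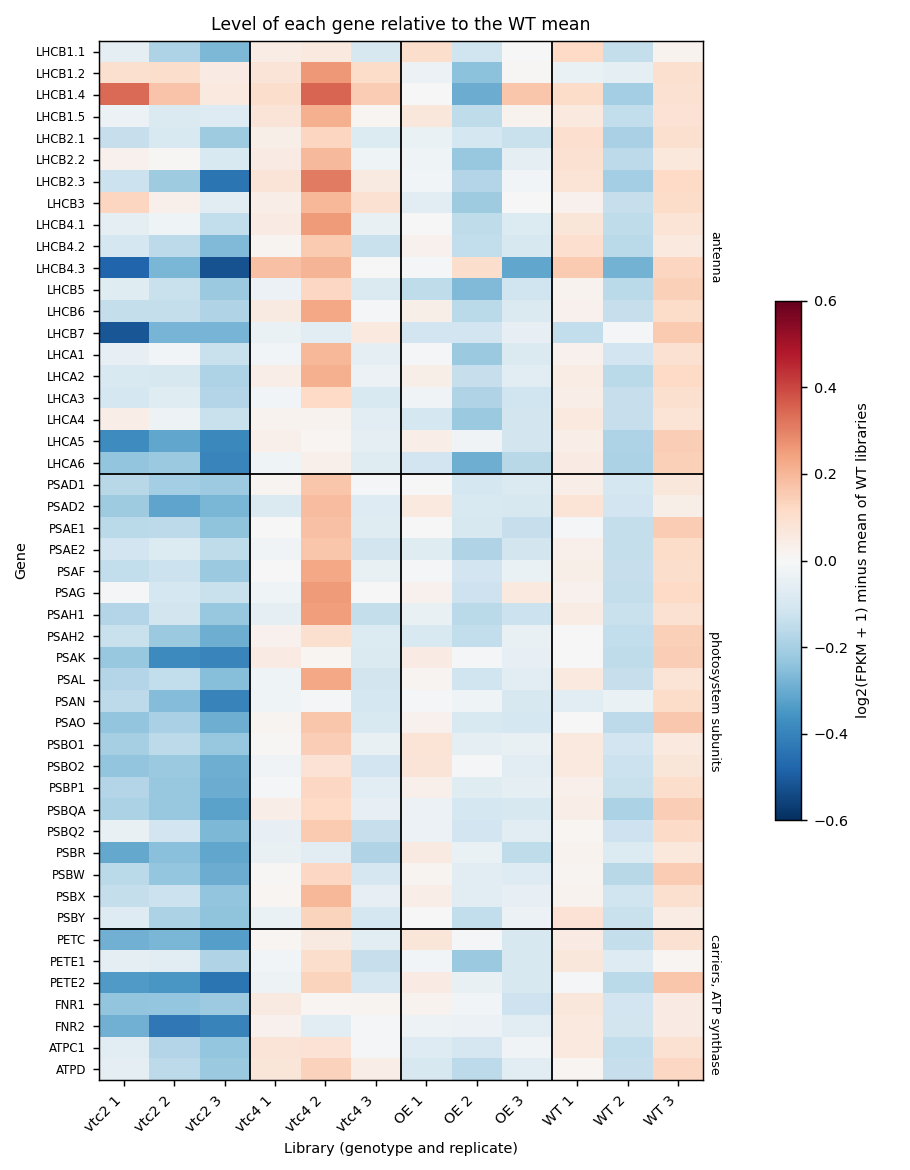
Level of each of 48 genes (rows, by class) in each of 12 libraries (columns), as log2(FPKM + 1) minus the WT mean; blue is lower and red is higher than the WT mean. The 3 vtc2 columns are blue through nearly all photosystem rows, vtc4 replicate 2 is red through most rows, and WT replicate 2 and OE replicate 2 are pale blue through most rows.

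Rescaling to a common FPKM sum made the photosystem and carrier differences smaller and turned part of the antenna. On that scale the median of all genes in vtc2 against WT lay at 0.078, the photosystem median at -0.11, the carrier median at -0.14 and the antenna median at -0.05. The LHCB1 to LHCB3 median turned to 0.045, with LHCB1.2 at 0.17 ± 0.062 and LHCB1.4 at 0.28 ± 0.109 (SE), neither of them called. For both genes every vtc2 library lay above every WT library on this scale. LHCB1.2 had 3412 to 3487 FPKM in vtc2 and 2949 to 3191 FPKM in WT. LHCB1.4 had 2905 to 3474 FPKM in vtc2 and 2341 to 2772 FPKM in WT. On deposited FPKM the groups of both genes overlapped. No share of all genes apart in this direction stands beside these 2 genes, so nothing is read from it. Of the 7 calls 6 remained on the common FPKM sum, and LHCB7 was lost (limma adjusted p = 0.116). There 39 of 48 members were negative. On this scale 2.51% of all genes were called and 1.06% were called lower. Of the 21 photosystem genes, 8 had every vtc2 library below every WT library on this scale, against 6.02% of all genes. Quantile scaling moved the medians to 0.009 for antenna, -0.044 for photosystem and -0.046 for carrier genes. With scaling by median ratios these medians were -0.14, -0.20 and -0.23, and the median of all genes was 0.0009.

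The antenna and the photosystem genes were then set against each other within each library, where the library's scale cancels. The mean of the antenna genes minus that of the photosystem genes, relative to WT, was 0.068, 0.092 and 0.063 in vtc2, 0.049, 0.020 and 0.066 in vtc4, -0.028, -0.075 and 0.002 in OE, and 0.024, -0.023 and -0.001 in WT. All vtc2 libraries stood above all WT and OE libraries, 2 of the 3 vtc4 libraries did so as well, and the OE libraries overlapped WT. The vtc2 libraries averaged 0.074 on this measure, beside a spread of 0.027 (SD of the library values pooled within groups). The difference between the class medians of the fold changes, another measure, was 0.061 in vtc2 against WT. The members were chosen with results of these data known, so no p is given for these means. As a share of a library's summed FPKM, photosystem genes held 7.58% to 7.96% in vtc2, 8.35% to 9.04% in vtc4, 8.28% to 8.61% in OE and 8.10% to 8.89% in WT, with vtc2 below all others. Antenna genes held 9.49% to 10.2% in vtc2, 10.0% to 10.7% in vtc4, 8.87% to 9.86% in OE and 9.20% to 10.2% in WT. These antenna shares overlapped between vtc2 and WT, and every vtc4 library was above every OE library.

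**Figure D4:**
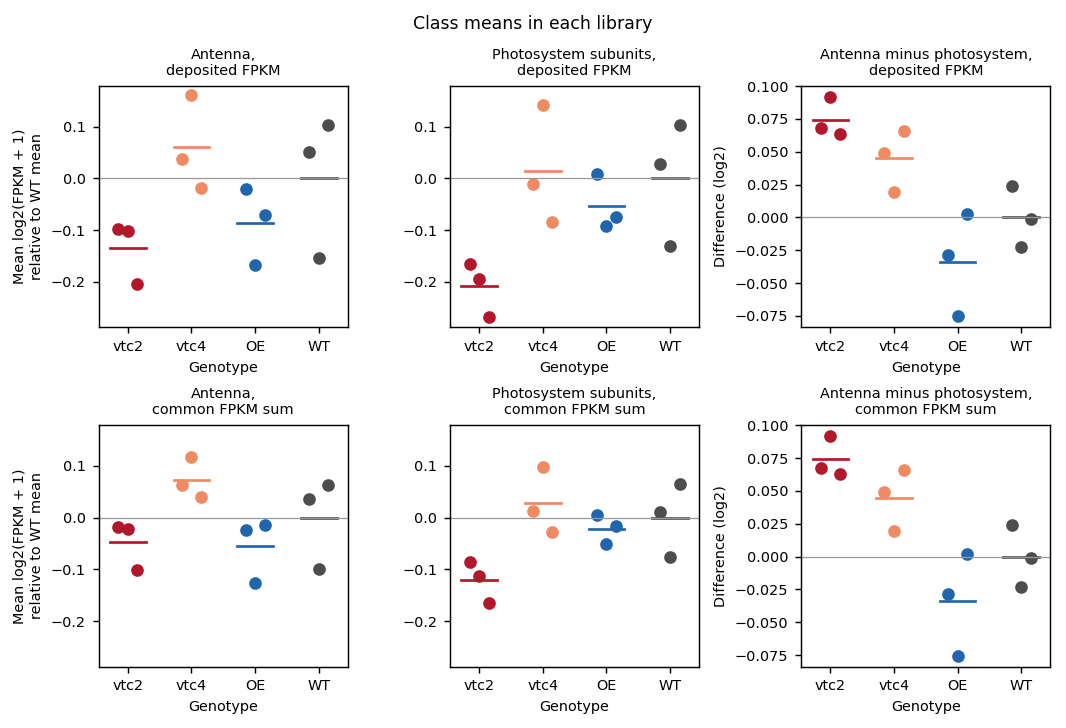
Mean log2(FPKM + 1) of antenna and photosystem genes relative to the WT mean, and their difference, in each library (points; bars are group means), on deposited FPKM (top) and a common FPKM sum (bottom). The difference panels look alike on both scales and place the vtc2 libraries between 0.063 and 0.092 and the WT libraries between -0.023 and 0.024.

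Members of 1 family share function, and their shares within the family do not depend on how a library is scaled. In 8 of 10 families at least 1 member's share was apart between vtc2 and WT, in 4 families between vtc4 and WT, and in none between OE and WT. Single genes' levels were apart in either direction for 22.9% of all genes in vtc2 against WT, but a share is another quantity, families have several shares, and no share over all genes stands beside these counts, so nothing is read from their size. PETE1 made up 11.2%, 11.2% and 11.0% of plastocyanin FPKM in vtc2, 9.49%, 9.27% and 9.19% in vtc4, 9.04%, 8.41% and 9.41% in OE, and 9.85%, 9.91% and 8.55% in WT. LHCB2.2 made up 36.9%, 36.6% and 37.5% of LHCB2 in vtc2, and between 32.9% and 35.1% in every other library. Both shares were higher in all vtc2 libraries than in any other.

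LHCB1.4 held 14.1%, 13.3% and 12.7% of LHCB1 in vtc2, 11.6%, 12.7% and 12.5% in vtc4, 10.8%, 10.4% and 12.5% in OE, and 11.6%, 10.8% and 11.5% in WT. FNR2 held 32.7%, 30.6% and 30.7% of FNR in vtc2, 33.1%, 32.4% and 33.1% in vtc4, 32.7%, 33.2% and 34.5% in OE, and 33.4%, 33.6% and 33.5% in WT, so both ascorbate mutants lay below WT. PSBO2, the less abundant copy of the manganese-stabilising protein, held 20.5% to 20.8% of PSBO in vtc2, 20.4% to 20.9% in vtc4, 21.0% to 21.8% in OE and 21.1% to 21.4% in WT. Again all libraries of both mutants lay below all WT libraries. LHCB4.1, the main copy of a linker antenna protein, held 53.8% to 55.2% of LHCB4 in vtc2, 53.5% to 54.7% in vtc4, 52.5% to 53.3% in OE and 52.4% to 53.3% in WT. In vtc2 against WT, LHCB1.1 held 30.3% to 32.2% of LHCB1 against 32.9% to 35.1%, PSAD2 38.6% to 39.8% of PSAD against 40.0% to 41.3%, and PSAE2 26.2% to 26.8% of PSAE against 25.1% to 26.1%. LHCB1 and LHCB2 shares rest on copies that share stretches of sequence, and no test was run on shares. LHCB1.3, listed at 0, adds nothing to the LHCB1 sum, so LHCB1 shares are shares among the other copies only.

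**Figure D5:**
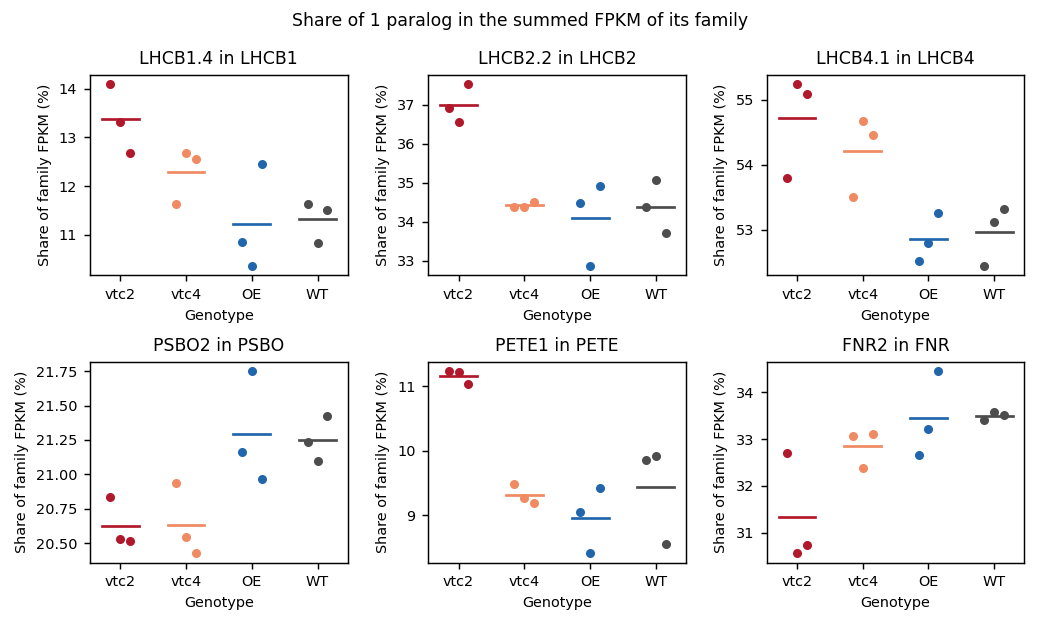
Share of 1 gene in the summed FPKM of its family (percent, points are libraries, bars are group means; axes do not start at 0) for 6 of 10 families, chosen after the values were seen. PETE1 and LHCB2.2 stand higher in the 3 vtc2 libraries than in all others, and FNR2 and PSBO2 stand lower in vtc2 and vtc4 than in WT.

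In vtc4 no member was called against WT by limma, none had an unadjusted p below 0.05, and no member's groups were apart. Over all genes 0.0347% were called, 4.86% had such a p, and 10.4% had groups apart in either direction. The median over members was 0.023, with 13 of 48 negative. All 8 tested genes of LHCB1 to LHCB3 lay above 0, with a median of 0.10. On the common FPKM sum the count of calls was again 0, 1 member, LHCB1.2, had an unadjusted p below 0.05 (4.33% of all genes had one), and 6 members had every vtc4 library above every WT library, or 12.5% against 5.71% of all genes. These 6 were LHCB1.2, LHCB1.4, LHCB1.5, LHCB2.3, PSAD1 and ATPD. LHCB1.2 (AT1G29910) had 3313, 3757 and 3384 FPKM in vtc4 and 3050.4, 3019 and 3353 FPKM in WT, and its fold change of 0.15 had a 95% interval from -0.02 to 0.32. LHCB1.4 had 2856, 3384 and 2953 FPKM in vtc4 and 2867, 2304 and 2828 FPKM in WT. LHCB2.3 (AT3G27690) had 1609, 1892 and 1579.8 FPKM in vtc4 and 1613, 1324 and 1656 FPKM in WT, and its fold change of 0.15 had an interval from -0.08 to 0.38. Replicate 2 was the highest of the vtc4 libraries for these 3 genes, and the groups overlapped on deposited FPKM. FNR2 stood at 413, 388 and 404 FPKM in vtc4, a fold change of -0.01 with an interval from -0.14 to 0.11 against WT. PETE2 stood at 3229, 3614 and 3075.3 FPKM, PETC at 1966, 2025 and 1859 FPKM, PSAK at 3228, 3147 and 2937 FPKM and PSBR at 7367, 7255 and 6709 FPKM in vtc4, all overlapping the WT values given above. LHCA5 at 275, 271 and 258 FPKM and LHCB7 at 40.2, 39.4 and 43.1 FPKM in vtc4 overlapped WT as well. The antenna median was 0.057 and the photosystem median 0.015, a difference of 0.042 that turned to -0.006 with quantile scaling. Without WT replicate 2 the antenna median turned to -0.016 and the photosystem median to -0.052; without vtc4 replicate 3 they were 0.104 and 0.073.

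In OE no member was called against WT by limma, 1 had an unadjusted p below 0.05, and no member's groups were apart. Over all genes 0.0174% were called, 6.04% had such a p, and 10.9% had groups apart in either direction. All 48 members were negative on deposited FPKM and 39 of them on the common FPKM sum, with class medians of -0.085 for antenna, -0.054 for photosystem and -0.043 for carrier genes; the photosystem median was 0.000 with quantile scaling, and the medians turned to 0.010, 0.030 and 0.005 when libraries were weighted by their quality. Without WT replicate 2 the antenna and photosystem medians were -0.16 and -0.12, and without WT replicate 3 they were -0.037 and -0.0023. LHCA6 (AT1G19150), another minor antenna protein of photosystem I, had the smallest p (0.0412 unadjusted; limma adjusted p = 0.806), with 119, 105 and 115 FPKM in OE and 134, 113 and 143 FPKM in WT. LHCB5 (AT4G10340), a minor antenna protein of photosystem II, had 5616, 5186 and 5744 FPKM in OE and 6330.1, 5573 and 6882 FPKM in WT, a fold change of -0.18 with an interval from -0.37 to 0.01. LHCA4 (AT3G47470), a main antenna protein of photosystem I, had 5758, 5313 and 5752 FPKM in OE and 6461, 5630.1 and 6559 FPKM in WT, a fold change of -0.15 with an interval from -0.31 to 0.02. The groups of these 3 genes overlapped. For FNR2 the OE libraries had 397, 396 and 388 FPKM, and its interval against WT ran from -0.17 to 0.09.

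OE was also set against vtc2, the background of the line; this comparison shares the vtc2 libraries with that of vtc2 against WT. In OE 5 members were higher, namely FNR2, LHCA5, PSAK, PETC and PETE2; 5.14% of all genes were called and 2.94% were called higher. LHCA5 had 276, 264 and 249 FPKM in OE against 207, 216 and 205 FPKM in vtc2, and PSAK had 3235, 3111 and 3016 FPKM in OE against 2665, 2398 and 2368 FPKM in vtc2. PETE2 had 3406, 3195 and 3081 FPKM in OE against 2603, 2587 and 2436 FPKM in vtc2, and PETC had 2050.4, 1939 and 1825 FPKM in OE against 1596, 1612 and 1552 FPKM in vtc2. In none of these 4 genes did a library of one genotype reach the range of the other. The fold changes were 0.33 ± 0.059 for FNR2 (SE; limma adjusted p = 0.0138), 0.33 ± 0.076 for LHCA5 (0.0323), 0.33 ± 0.080 for PSAK (0.0351), 0.29 ± 0.070 for PETC (0.0387) and 0.34 ± 0.087 for PETE2 (0.0427). FNR2 kept its call in 9 of 12 fits that left out 1 library, and the other 4 genes in 3 to 6. Leaving out OE replicate 1 gave the highest adjusted p for those 4, between 0.131 and 0.159.

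In OE against vtc2 the photosystem median was 0.15, with 20 of 21 genes positive and 15 with every OE library above every vtc2 library, and the carrier median was 0.19. Over all 48 members groups were apart in this direction for 43.8%, against 39.5% of the abundant other genes and 14.3% of all genes. The antenna median was 0.048, and it turned to -0.008 on the common FPKM sum and to -0.031 with quantile scaling; the photosystem median moved to 0.091 and 0.039 and the carrier median to 0.134 and 0.099. Without OE replicate 1 the antenna median was 0.012, and without OE replicate 2 it was 0.084. LHCB1.2 was the 1 member lower in every OE library, at 3059, 2645 and 3153 FPKM in OE against 3349, 3372 and 3249 FPKM in vtc2 (13.0% of all genes had groups apart in this direction), and it was not called (-0.17 ± 0.078, SE; limma adjusted p = 0.200). The abundant other genes had a median of 0.10.

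The mutants were also compared with each other, vtc2 with vtc4, which carry lesions in different steps of the pathway. All 48 members were negative, and FNR2 and LHCA5 were lower in vtc2; 1.36% of all genes were called and 0.902% were called lower. FNR2 had a fold change of -0.36 ± 0.059 (SE; limma adjusted p = 0.0214) and LHCA5 of -0.35 ± 0.076 (SE; limma adjusted p = 0.0464). Without vtc4 replicate 2 these adjusted p values were 0.0974 and 0.163. The FNR2 call was also lost without vtc2 replicate 2, vtc2 replicate 3, vtc4 replicate 1 or vtc4 replicate 3. Among fits that left out 1 library, the LHCA5 call was kept only without WT replicate 2 or WT replicate 3. For 31 members (64.6%) all vtc2 libraries lay below all vtc4 libraries, against 38.5% of the abundant other genes and 13.7% of all genes, and 3 of these 31 belong to LHCB1 to LHCB3. Class medians were -0.17 for antenna, -0.23 for photosystem and -0.26 for carrier genes, against -0.093 for the abundant other genes. On the common FPKM sum 45 members were negative and the medians were -0.094, -0.15 and -0.18; under quantile scaling they were 0.003, -0.032 and -0.14. Without vtc4 replicate 2 the antenna median was -0.11.

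Some opposite-strand transcripts moved with some libraries. Of the loci opposite LHCB1.5, PSAE1 and PSAG, 3 that varied between libraries were summed: AT2G08665, AT4G28755 and AT1G55673. Their sums were 229, 10.0 and 105 FPKM in vtc2 and 13.1, 11.1 and 111 FPKM in vtc4. In OE they were 22.5, 11.7 and 101 FPKM, and in WT 11.1, 3.56 and 13.6 FPKM. These 3 loci reached at most 1.3%, 1.7% and 1.5% of the level of the gene they face. AT2G34410, also opposite LHCB1.5, stayed between 4.44 and 6.68 FPKM, and AT4G28740, also opposite PSAE1, between 37.2 and 49.9 FPKM. The 4 libraries above 50 FPKM in the sum of the 3 loci were left out in a step chosen after the data were seen. This leaves 1 vtc2 library, whose spread cannot be estimated, so only effect sizes are given. The vtc2 against WT medians were then -0.09 for antenna, -0.19 for photosystem and -0.23 for carrier genes, and FNR2 stood at -0.43. The part of these transcripts in the calls was not tested. Whether counting used the strand is not given in the sources used here, and 17 members overlap a gene on the opposite strand.

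Genes that make, place or use the same complexes were counted from lists. In vtc2 against WT, 19.7% of all genes had an unadjusted p below 0.05 and 2.23% were called lower. Of the 1024 abundant other genes, 99 were called lower and 796 were negative. None of 20 chlorophyll synthesis genes was called by limma in this comparison, with 5 at an unadjusted p below 0.05 and a median of -0.03. On the common FPKM sum that median turned to 0.058. All 10 genes of antenna import and photosystem assembly were negative, with a median of -0.13, and 1 fell: HCF136, a photosystem II assembly factor, at 261 ± 21.4 FPKM in vtc2 and 325 ± 28 FPKM in WT (SD, n = 3; limma adjusted p = 0.0440). All 6 regulators were negative, and STN8, a kinase of photosystem II proteins, fell, at 65.4 ± 6.06 FPKM in vtc2 and 87.1 ± 8.30 FPKM in WT (SD; limma adjusted p = 0.0351). Of 8 other electron transport genes all were negative, with a median of -0.29, and 2 fell. These were the ferredoxin gene FD1, at 416 ± 9.07 FPKM in vtc2 and 512 ± 36.4 FPKM in WT (SD; limma adjusted p = 0.0413), and PGR5, needed for cyclic electron flow, at 412 ± 11.0 FPKM in vtc2 and 525 ± 23.4 FPKM in WT (SD; limma adjusted p = 0.0422). HCF136 and PGR5 were not called on the common FPKM sum (adjusted p = 0.0807 and 0.0575).

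In the other comparisons these lists gave few calls. FD1 was higher in OE than in vtc2, at 506 ± 19.0 FPKM in OE and 416 ± 9.07 FPKM in vtc2 (SD; limma adjusted p = 0.0379). LTD, which guides antenna proteins to the thylakoid, was lower in vtc2 than in vtc4, at 199.9 ± 2.21 FPKM in vtc2 and 249 ± 14.6 FPKM in vtc4 (SD; limma adjusted p = 0.0456). No gene of the 4 lists was called by limma in vtc4 or OE against WT, where 2 genes in each comparison had an unadjusted p below 0.05. All 6 regulators were negative in both comparisons, with medians of -0.073 in vtc4 and -0.091 in OE. Of the 8 other electron transport genes 7 were negative in each. Of the 10 import and assembly genes 4 were negative in vtc4 and 8 in OE, and of the 20 chlorophyll synthesis genes 6 and 13. Over all genes, 4.86% in vtc4 and 6.04% in OE had such a p.

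Markers of other cell types were read beside these results. The 4 guard cell markers summed to 23.4 to 27.2 FPKM in vtc2 and 28.7 to 30.9 FPKM in WT, and MYB60 among them fell (9.15 ± 1.28 FPKM in vtc2, 12.4 ± 1.04 FPKM in WT, SD; limma adjusted p = 0.0453). FAMA averaged 7.31 FPKM in vtc2 and 8.93 FPKM in WT, and KAT1 4.34 and 4.74 FPKM. TMM went the other way, at 3.93 FPKM in vtc2 and 3.84 FPKM in WT. No guard cell marker was called on the common FPKM sum. The 2 phloem companion cell markers summed to 55.9 to 61.6 FPKM in vtc2 and 58.3 to 67.3 FPKM in WT. Of the 2 root markers PYK10 rose in vtc2 (27.8 ± 3.26 FPKM in vtc2, 14.0 ± 3.19 FPKM in WT, SD; limma adjusted p = 0.0095), and the other stayed at or below 0.1 FPKM. PYK10 also averaged 25.6 FPKM in vtc4 and 20.1 FPKM in OE. Both were above WT with an unadjusted limma p below 0.05, and neither was called. The 4 floral markers summed to less than 1 FPKM in every vtc2 and WT library. The part of these cell types in the fall of the photosystem genes was not tested.

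Sequence content and level moved with the fold changes among the members. Across the 48 genes, which share libraries and are not independent replicates, the vtc2 against WT fold change had a Pearson r of 0.473 and a Spearman rho of 0.405 with transcript GC content, and of 0.488 and 0.427 with mean FPKM. Among 1022 abundant other genes the Pearson values were 0.041 and -0.13. Median GC was 45.1% for antenna, 42.8% for photosystem and 40.8% for carrier genes. With trends of length and GC removed over all genes, 43 of 48 members were negative and 3 were called, the class medians were -0.10, -0.17 and -0.20, and the correlation with GC was 0.344.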

How the data were processed

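Messenger RNA of 12 rosette pools was read as stranded paired-end libraries. The authors deposited 1 table of FPKM values per gene; the TAIR10 build, Cuffdiff, Cufflinks 2.2.1, HISAT2 2.1.0 and Trimmomatic 0.36 are named by the submitters' processing notes. The annotation, the strand setting and the normalization option are not given in the sources used here.

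Genes with at least 1 FPKM in at least 3 libraries (17290) were tested as log2(FPKM + 1) in limma 3.58.1 under R 4.3.3, with all 12 libraries in 1 model, genotype as the only term, a mean-variance trend, two-sided tests and Benjamini-Hochberg adjustment. A check on simulated data used independent noise per gene and fold changes larger than those of the called members. It therefore does not bear on changes of this size or on shifts shared by many genes. Since values are not counts, no count model was used. The pseudocount understates changes of low genes. Libraries of a group are independent pools, so p-values cover the spread between pools.

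Genes named with values are the members called in a comparison, 3 of smallest p in a comparison without calls, the 3 most abundant members, the least abundant antenna and photosystem gene, and family shares; LHCB1.4, LHCB4.3, LHCB1.2, LHCB3, FNR1 and PETE1 in vtc2 were added after their values were seen. Members and lists were chosen with earlier results of these data known. Alternatives of the scale and filter were another pseudocount, other filters, a common FPKM sum, scaling by median ratios and quantile scaling. Alternatives of the fit were only the compared groups, no trend, robust moderation, library weights, a replicate block and each library left out. After the data were seen, 2 more were added. Positions and sequences come from RefSeq TAIR10.1; the table holds no coordinates.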

Additional observations from a re-analysis of the deposited data

How the results depend on the processing

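The counts of members called moved with several settings. The fit without the 4 libraries of high antisense level leaves 1 vtc2 library, so its calls are not counted for comparisons with vtc2. In vtc2 against WT, where 7 were called, there were 2 with no filter, 4 with quantile scaling and 4 with library weights. There were 4 with a replicate block, 1 with no trend, 3 with length and GC trends removed, and 0 with only the 2 groups in the fit. Leaving out 1 library gave 0 to 12. In OE against vtc2, where 5 were called, there were 1 with no filter, 2 with no trend, 12 with library weights, and 0 with only the 2 groups. Leaving out 1 library gave 0 to 6 in that comparison. In vtc2 against vtc4, where 2 were called, there were 1 with no filter, 6 with a mean of at least 5 FPKM and 4 on the common FPKM sum. There were 4 with quantile scaling, 1 with no trend, 12 with library weights, 1 with length and GC trends removed, and 0 with only the 2 groups. Here leaving out 1 library gave 0 to 8. In vtc4 and OE against WT the count was 0 under each alternative run.

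The antenna minus photosystem difference of class medians in vtc2 against WT (0.061) was 0.099 with library weights, 0.101 without the 4 libraries, and 0.049 to 0.089 with 1 library left out. In OE against vtc2 (-0.099) it was -0.070 with quantile scaling, -0.066 with length and GC trends removed, -0.130 without the 4 libraries, and -0.112 to -0.086 with 1 library left out. In vtc2 against vtc4 (0.060) it was 0.054 to 0.069 with 1 library left out. In vtc4 against WT (0.042) it was -0.0061 with quantile scaling, 0.0024 with length and GC trends removed, and 0.028 to 0.056 with 1 library left out; in OE against WT (-0.031) it was -0.050 to -0.009 with 1 library left out. Quantile scaling gives all libraries the same value at each rank, and 9 of the 10 top ranks by mean FPKM are members. The cause of these changes, those under quantile scaling included, was not tested. Replicate numbers did not pair the libraries: deviations of same-numbered libraries correlated between -0.169 and 0.204, and 3 of 12 libraries correlated best with their own number. Depth is known only relative to WT replicate 1, and 3 libraries per group limit what small differences can be called.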
